A study of Mus musculus with 9 samples.

Results

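The FOXO family of the mouse consists of 4 genes, Foxo1, Foxo3, Foxo4 and Foxo6. All 4 were found by their Ensembl gene IDs among the 53465 genes counted, of which 53274 had a symbol. RNA sequencing of mouse heart gave 9 libraries, 3 in each of 3 groups, and every heart was from the immunodeficient strain NOD-SCID. The sham group had surgery without ligation, the ligation group had a coronary artery tied off, and the cells group had the ligation together with implanted cells that the labels call FOXO3-GE-MPCs. Infarct border zone is the sampled region named for all 3 groups, sham included. The labels give no age and do not say whether each library came from its own animal, so p-values measure the spread between these libraries, which may be technical. The column headers of sham replicates 1 and 2 share a stem, as do those of ligation replicates 2 and 3, so 3 libraries may come from fewer separate sources. For cell replicates 2 and 3 the labels disagree: the source reads FOXO4 and FOXO5, whereas title and treatment read FOXO3, as used here. Reads of the implanted cells were not separated from those of the host heart.

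FOXO proteins are forkhead transcription factors that act as the nuclear end of insulin and growth factor signalling. When PI3K is active, AKT and the related kinase SGK phosphorylate FOXO, 14-3-3 proteins bind it, and it is held in the cytoplasm and degraded. When that signal is low, or when stress kinases such as AMPK, JNK and MST are active, FOXO enters the nucleus and turns on genes for protein breakdown, autophagy, antioxidant defence, cell cycle arrest and use of fatty acids. In heart muscle FOXO1 and FOXO3 are known for the atrophy ubiquitin ligases and for protection from oxidative stress, and FOXO1 is also required for blood vessel growth. Most of this regulation acts on the proteins, so an RNA level does not give FOXO activity.

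The part of the coding sequence in which the 4 genes are most alike is shown first, because it bears on whether reads can be assigned to 1 member. It is a stretch of 90 coding bases, made of 52 bases of one exon and 38 bases of the next, printed 5′ to 3′ on the strand of the gene. Capitals mark the bases that differ from Foxo1.
Foxo1: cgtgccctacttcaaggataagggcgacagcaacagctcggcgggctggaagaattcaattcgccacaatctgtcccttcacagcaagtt
Foxo3: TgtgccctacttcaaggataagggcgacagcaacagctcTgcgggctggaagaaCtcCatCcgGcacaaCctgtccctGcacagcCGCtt
Foxo4: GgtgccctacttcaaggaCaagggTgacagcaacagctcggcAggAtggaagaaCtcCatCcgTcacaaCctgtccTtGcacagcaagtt
Foxo6: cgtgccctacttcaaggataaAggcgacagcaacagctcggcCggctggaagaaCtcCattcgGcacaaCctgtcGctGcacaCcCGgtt

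In the GRCm38 (mm10) build these bases lie at chr3:52269371-52269422 and chr3:52345039-52345076 for Foxo1 (plus strand), and at chr10:42274816-42274867 and chr10:42197864-42197901 for Foxo3 (minus strand). For Foxo4 they lie at chrX:101255222-101255273 and chrX:101258177-101258214 (plus strand), and for Foxo6 at chr4:120286839-120286890 and chr4:120269145-120269182 (minus strand). Foxo3 differed from Foxo1 at 11 of the 90 bases, Foxo4 at 12 and Foxo6 at 11. The junction between the 2 exons falls at the same base of the stretch in all 4 genes. Over the whole coding sequence, pairs of members were 67.0% to 72.1% identical in aligned bases. The longest run shared without a mismatch was 38 bases, between Foxo1 and Foxo3, and in the other pairs it was 17 to 21 bases. None of the stretches of 31 bases in Foxo4 or Foxo6 occurred in another gene, and 0.106% of those in Foxo3 did. For Foxo1 the share was 8.002%, of which most (615 of 691 stretches) lay in Gm20402, a gene annotated on the opposite strand that overlaps 674 exon bases of Foxo1. Gm20402 had 0 counts in all 9 libraries. Since the strand setting of the counting is not given in the sources used here, reads from the pair could not be told apart where they overlap.

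Foxo1 (ENSMUSG00000044167) spans chr3:52268336-52353221 on the plus strand with 8665 exon bases. Foxo3 (ENSMUSG00000048756) spans chr10:42181841-42276755 on the minus strand with 7571 exon bases. Foxo4 (ENSMUSG00000042903) is a short X-linked gene at chrX:101254528-101260873 on the plus strand, with 3485 exon bases. Foxo6 (ENSMUSG00000052135), the member best known from the brain, spans chr4:120267079-120287349 on the minus strand with 2615 exon bases.

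Gene counts summed to between 4549268 and 7515052 per library. Levels below are counts relative to the library's total (CPM) after scaling with TMM factors, with the SD over 3 libraries. A count of 3, taken as the limit of detection, corresponds to between 0.375 and 0.639 CPM. Mitochondrially encoded genes took 19.1% to 19.9% of counts in sham, 12.5% to 13.9% in ligation and 14.3% in cells. The 7 cardiomyocyte markers checked against the tissue label were all detected in every group. All 4 members passed the filter on low counts and were among the 13825 genes tested. In bulk tissue, fewer cells of a type and less RNA per cell cannot be told apart.

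Per kilobase of exon, the order of the levels was Foxo4, Foxo3, Foxo1 and Foxo6 in every group, and no ranges of neighbours in that order overlapped within a group. Foxo4 stood at 15.6 ± 1.59 CPM per kilobase in sham, 22.1 ± 0.754 in ligation and 20.9 ± 0.402 in cells. Foxo3 stood at 9.26 ± 0.548, 10.9 ± 0.162 and 9.90 ± 0.407 CPM per kilobase in the same order of groups. Foxo1 was lower, at 4.04 ± 0.0599, 3.47 ± 0.102 and 3.73 ± 0.0426 CPM per kilobase. Foxo6 was lowest, at 0.937 ± 0.0803, 0.753 ± 0.0996 and 0.918 ± 0.129 CPM per kilobase. Among 13818 genes with a known length, Foxo4 was at the 80.0th percentile of level per kilobase in sham and Foxo6 at the 14.5th. The first place of Foxo4 depends on the length used. Foxo3 also has a coding transcript of 2889 bases, and with that length the sham level of Foxo3 became 24.3 ± 1.44 CPM per kilobase, above the 17.2 ± 1.75 of Foxo4 by its longest transcript. With the coding length alone, the sham ranges overlapped, at 32.4 to 36.4 for Foxo3 and 33.5 to 40.1 for Foxo4. In ligation the coding length alone gave 48.8 to 52.0 for Foxo4 and 40.5 to 41.7 for Foxo3, and in cells 47.1 to 48.9 and 36.2 to 38.9, with Foxo4 above Foxo3 in both. Which Foxo3 transcript the border zone uses was not tested.

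**Figure D1:**
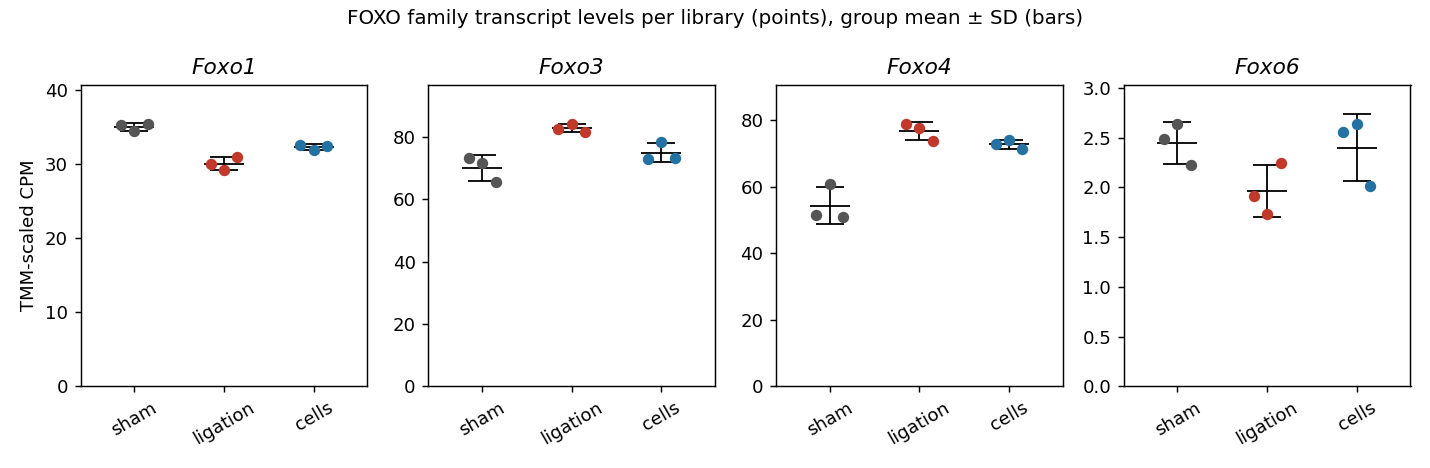
Level of each FOXO gene in each library in TMM-scaled CPM (y axis, starting at 0, with its own scale per gene) for the sham, ligation and cells groups (x axis), 1 point per library with the group mean and SD as bars. Foxo4 lies at 50.8 to 60.8 CPM in sham and at 71.3 to 78.8 CPM in the other groups, while Foxo1 moves the other way over a narrow range.

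Ligation against sham addressed how the family's RNA differs in the border zone of a ligated heart. Foxo4 and Foxo3 were higher after ligation, Foxo1 was lower by a margin close to the threshold, and Foxo6 did not pass the test. Thus 3 of 4 members were called by edgeR's quasi-likelihood test at an adjusted p under 0.05, 2 higher and 1 lower. Over all genes tested the share called was 38.2%, with 20.1% higher and 18.0% lower. The same 3 members had ranges that did not overlap between the groups, against 47.6% of all genes, 25.0% higher and 22.6% lower. The median log2 fold change of the members was 0.01, and that of all genes was also 0.01.

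Foxo4 read 51.6, 60.8 and 50.8 CPM in the sham libraries and 78.8, 77.8 and 73.9 CPM in the ligation libraries. Every ligation library was above every sham library, and sham replicate 2 was the nearest to the ligation group. The group means were 54.4 ± 5.55 and 76.9 ± 2.63 CPM (SD, n = 3), a rise of 0.50 on the log2 scale (SE 0.0739, 95% interval 0.34 to 0.65, 1.41-fold, edgeR adjusted p = 1.78e-05). Foxo4 was called in each of 21 alternative fits, with changes of 0.45 to 0.68. With libraries of a shared header stem summed, the change was 0.50 (edgeR adjusted p = 9.64e-05).

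Foxo3 read 73.3, 71.5 and 65.4 CPM in sham and 82.7, 84.1 and 81.6 CPM in ligation. The ranges did not overlap, and the ligation libraries lay within a few CPM of each other. The means of 70.1 ± 4.15 and 82.8 ± 1.23 CPM (SD, n = 3) gave a rise of 0.24 on the log2 scale (SE 0.0662, 95% interval 0.10 to 0.38, 1.18-fold, edgeR adjusted p = 0.00648). Foxo3 was also called in all 21 alternatives, with changes of 0.19 to 0.43. With libraries of a shared header stem summed it was 0.24 (edgeR adjusted p = 0.0264). The highest of the 21 came from library totals without TMM factors, which moved the median gene up by 0.19.

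Foxo1 read 35.2, 34.4 and 35.4 CPM in sham and 30.04, 29.2 and 31 CPM in ligation. All 3 ligation libraries were below all 3 sham libraries. The means of 35.02 ± 0.519 and 30.1 ± 0.886 CPM (SD, n = 3) gave a log2 fold change of -0.22 (SE 0.0844, 95% interval -0.39 to -0.04, edgeR adjusted p = 0.0478). That call was not held by 18 of the 21 alternatives, whose edgeR, DESeq2 or limma-voom adjusted p ran from 0.0501 to 0.825. Each of the 9 fits that left out 1 library was among the 18, as was the fit with libraries summed by header stem (-0.24, edgeR adjusted p = 0.0761). With library totals alone the change was -0.03. The fall of Foxo1 is thus a difference relative to the median gene, at the edge of the threshold.

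Foxo6 read 2.49, 2.64 and 2.22 CPM in sham and 1.92, 1.74 and 2.25 CPM in ligation. The groups overlapped, and these levels rest on 9 to 18 counts per library. The log2 fold change of -0.30 (SE 0.336) had an interval from -1.003 to 0.40 (edgeR adjusted p = 0.518). That interval spans falls as well as rises, and no change was detectable at this depth.

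Ratios of counts within a library do not depend on how libraries are scaled. Foxo3 had 2.08, 2.08 and 1.85 counts per Foxo1 count in the sham libraries, and 2.75, 2.88 and 2.63 in the ligation libraries. The ratio of Foxo4 to Foxo1 was 1.46, 1.77 and 1.43 in sham, and 2.62, 2.66 and 2.38 in ligation. Neither ratio overlapped between sham and ligation. Foxo4 to Foxo3 stood at 0.704 to 0.850 in sham and 0.905 to 0.954 in ligation, also apart. The ratios are made of the same counts as the CPM above, in which these 3 members already did not overlap, so they are no independent result. No test was run on the ratios.

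**Figure D2:**
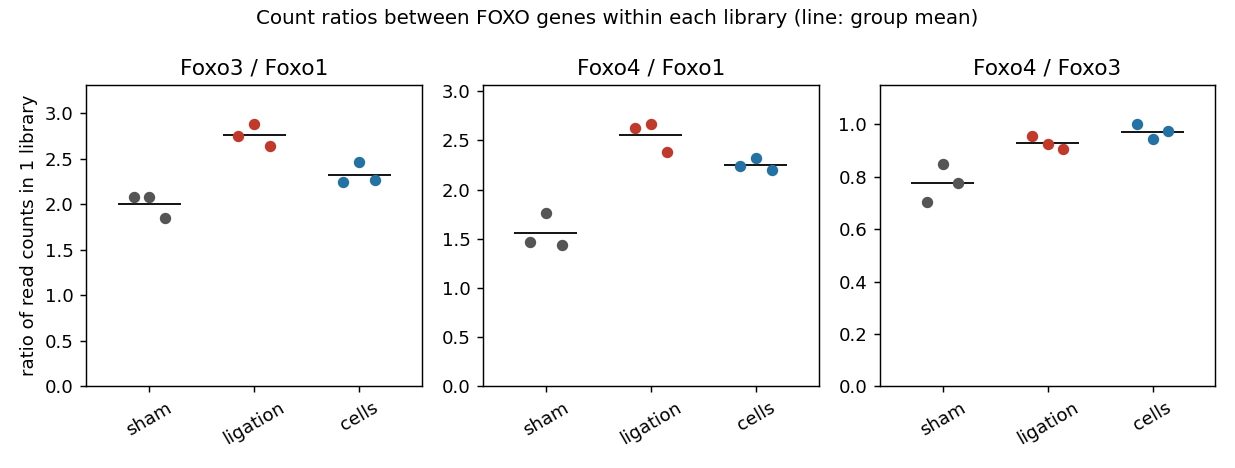
Ratio of read counts between FOXO genes within each library (y axis from 0, no unit) for the 3 groups (x axis), with 1 point per library and a line at the group mean. Foxo3 over Foxo1 runs from 1.85 to 2.08 in sham, 2.63 to 2.88 in ligation and 2.24 to 2.46 in cells, with no overlap between groups.

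Taking the 4 members as a sum, the family gave 162 ± 7.79 CPM in sham, 192 ± 2.57 in ligation and 182 ± 4.17 in cells (SD, n = 3). Per kilobase of exon, Foxo4 made up 52.2% of the family in sham, 59.2% in ligation and 59.0% in cells. The share of Foxo1 was 13.6%, 9.34% and 10.5% in the same order. These shares depend on the length used. With the Foxo3 transcript of 2889 bases, Foxo3 lay above Foxo4 in every group, for example at 28.7 against 24.3 CPM per kilobase in ligation. The sum and the shares follow the abundant members and carry no test of their own.

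Cells against ligation addressed how ligated hearts with implanted cells differ from ligated hearts without them. Of the 4 members, 0 were called by edgeR, where 9.87% of all genes were (4.19% higher and 5.69% lower), and DESeq2 and limma-voom also called 0. At an unadjusted p under 0.05 the count was 1, Foxo3. Ranges did not overlap for 2 members, Foxo1 higher and Foxo3 lower, against 27.2% of all genes, 13.2% higher and the remainder lower. The median log2 fold change was 0.01 for the members and 0.00 for all genes.

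Foxo3 read 73.0, 78.5 and 73.3 CPM in the cells libraries, all below the lowest ligation library at 81.6 CPM. The difference of -0.14 on the log2 scale had a 95% interval of -0.28 to -0.01 and an unadjusted p of 0.0397 (edgeR adjusted p = 0.192). The name of the implanted cells refers to FOXO3, and the labels do not make the species of those cells clear. The mouse Foxo3 gene was not called higher in the hearts that received them. Whether these counts hold any reads from implanted cells was not tested.

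Foxo1 read 32.6, 31.9 and 32.4 CPM with cells, above the ligation libraries and below the sham libraries. The difference from ligation was 0.10 on the log2 scale (95% interval -0.07 to 0.28, edgeR adjusted p = 0.524). Foxo4 read 73.0, 74.1 and 71.3 CPM with cells, which overlapped ligation. Its difference was -0.08 (95% interval -0.22 to 0.07, edgeR adjusted p = 0.589). Foxo6 read 2.55, 2.64 and 2.02 CPM, with a difference of 0.28 (95% interval -0.41 to 0.96, edgeR adjusted p = 0.684). A missed threshold does not show that the groups are alike, and the intervals give what these libraries allow.

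Cells against sham uses the same sham libraries as the ligation comparison, so the 2 are not independent. Foxo4 alone was called, 1 of 4 members against 40.9% of all genes tested, 21.0% higher and 20.0% lower. It was higher by 0.42 on the log2 scale (SE 0.0735, 95% interval 0.27 to 0.57, 1.34-fold, edgeR adjusted p = 0.000107), and it was called in all 21 alternatives with changes of 0.37 to 0.58. The ranges of 2 members did not overlap, Foxo4 higher and Foxo1 lower, against 49.8% of all genes, 25.4% higher and 24.5% lower. The median was 0.04 for the members and -0.01 for all genes.

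For the other members the cells group was not called apart from sham. Foxo3 differed by 0.10 on the log2 scale (95% interval -0.04 to 0.24, edgeR adjusted p = 0.251), with overlapping ranges. With 1 library left out the difference of Foxo3 ran from 0.05 to 0.13 and was not called in any of the 9 fits. With library totals in place of TMM factors it became 0.26 and passed the test (edgeR adjusted p = 0.00342). Foxo1 differed by -0.12 (95% interval -0.29 to 0.06, edgeR adjusted p = 0.279), and by 0.04 with library totals. Foxo6 differed by -0.03 (95% interval -0.70 to 0.65, edgeR adjusted p = 0.958).

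**Figure D3:**
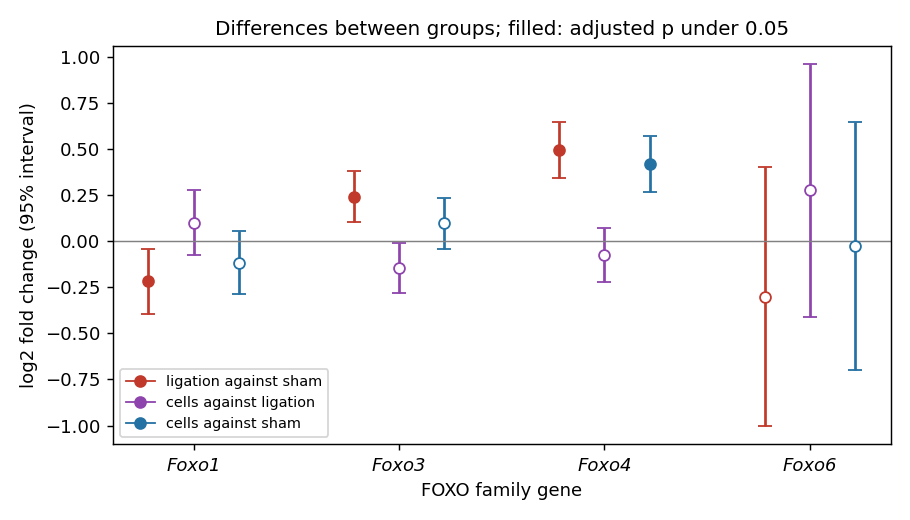
Log2 fold change of each FOXO gene (y axis) with its 95% interval for the 3 pairs of groups, 1 colour each, from 1 edgeR fit; filled points had an adjusted p under 0.05. Foxo4 is at 0.50 and 0.42 against sham and at -0.08 between the ligated groups, and the interval of Foxo6 is the widest of the 4 in every comparison.

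Foxo6, with the fewest counts, was the least precise of the members. The biological coefficient of variation fitted by edgeR was 4.55% for Foxo1, 5.09% for Foxo3, 5.42% for Foxo4 and 12.4% for Foxo6. Counts per library ran from 141 to 248 for Foxo1, 388 to 653 for Foxo3, 290 to 591 for Foxo4 and 9 to 19 for Foxo6.

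Several cell type markers moved with the same groups. The summed level of 6 endothelial markers was 1868 to 1973 CPM in sham, 1242 to 1310 in ligation and 1369 to 1409 in cells. That is the same order of groups as for Foxo1, and all 6 markers were called lower in ligation against sham. The 6 fibroblast markers summed to 1945 to 1999 CPM in sham, 3186 to 3279 in ligation and 3024 to 3107 in cells, a sum whose rise rests mostly on the collagen genes Col1a1 (247, 557 and 512 CPM) and Col3a1 (470.5, 1228 and 1049 CPM). In ligation against sham 4 of these 6 were called higher and 1 lower, Pdgfra. Dcn and Lum had their highest means in cells, Pdgfra in sham, and Tcf21 was not called in any comparison. Macrophage markers summed to 517 to 573 CPM in sham, 985 to 1010 in ligation and 399 to 418 in cells. In ligation against sham 5 of these 6 were called higher and 1 lower, Cd163, which fell from 36.9 ± 1.52 to 27.2 ± 1.22 CPM. Cardiomyocyte markers summed to 39180 to 40272, 29505 to 31508 and 28177 to 29316 CPM. Of these 7, ligation against sham called 3 lower (Myl2, Tnni3 and Myh6) and 2 higher (Ryr2 and Mybpc3), and cells against ligation called 1 lower, Tnnt2. No marker of these 4 lists was at 0 in any group.

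The 5 atrial markers summed to 474 to 565 CPM in sham, 845 to 1611 in ligation and 1569 to 2179 in cells. Nppa, the atrial natriuretic peptide, carried the rise of the sum in ligation, at 107 ± 34.4 CPM in sham, 895 ± 369 in ligation and 792 ± 359 in cells. Cells against ligation called 3 higher and 1 lower, and cells against sham called all 5 higher. Myl4, an atrial myosin light chain, stood at 198 ± 15.4 CPM in sham, 144 ± 14.1 in ligation and 494 to 506 in the cells libraries. Sln, the calcium pump inhibitor sarcolipin, stood at 66.1 ± 4.72, 55.4 ± 1.16 and 193 ± 20.6 CPM. In ligation against sham these and Myl7 were called lower, and Nppa and Bmp10 higher. Smooth muscle and pericyte markers summed to 1626 to 1665, 1230 to 1244 and 1212 to 1240 CPM, and of these 6, ligation against sham called 2 higher and 3 lower. Of 6 fast skeletal muscle markers 3 were tested, and 2 of them, Pvalb and Tnnt3, were called higher in ligation against sham and lower in cells against ligation, at means of at most 3.18 CPM. Of 5 neuron markers, 4 were at 0 in all sham libraries, 3 in all ligation and 3 in all cells libraries. Rbfox3 reached at most 0.25 CPM in ligation and Snap25 at most 0.284 CPM in cells. Slc17a7, a vesicular glutamate transporter, stood at 20.1 ± 0.867, 41.3 ± 1.80 and 54.6 ± 5.06 CPM and was called higher in all 3 comparisons. The part of cell makeup in the values of the FOXO genes was not tested.

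The genes whose levels followed each member most closely were ranked by the Pearson correlation of log2 CPM over the 9 libraries, among about 9412 genes with at least 10 CPM. The libraries fall into 3 groups, so a high value mostly says that a gene shares the member's order of groups. Foxo4 was followed by Calm3 (r = 0.99), a calmodulin gene, which went from 228 CPM in sham to 300.4 in ligation and 292 in cells. Next were Slc37a1 (r = 0.98), a sugar phosphate transporter, and Cttn (r = 0.98), which encodes the actin-binding protein cortactin. In all, 509 genes reached r = 0.9 with Foxo4. Foxo1 was followed by Miga2 (r = 0.99), a mitochondrial outer membrane protein gene, at 64.2, 41.0 and 51.1 CPM in sham, ligation and cells. Ablim1 (r = 0.97), an actin-binding LIM protein gene, and Inka2 (r = 0.97) came next, and 213 genes reached r = 0.9. Foxo3 was followed by Ralb (r = 0.98), a small GTPase, then R3hcc1 (r = 0.97) and Ankrd13a (r = 0.97), and 32 genes reached r = 0.9. Foxo6, at its low counts, was followed by Knop1 (r = 0.95), Chfr (r = 0.93) and Aig1 (r = 0.93), and 4 genes reached r = 0.9.

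The genes that act on FOXO proteins were taken as a list of 73, of which 72 were tested. Ligation against sham called 31 of them, 43.1% against 38.2% of all genes, with 22 higher and 9 lower. Their median log2 fold change was 0.04. Several falls named below depend on the scaling: library totals without TMM factors, which move the median gene up by 0.19, end the calls of Phlpp1, Ppp2r1a, Ppp2ca, Mapk14, Ywhaq, Prmt1 and Hdac5. With those totals the falls of Sgk1, Pink1 and Eng were smaller, at -0.29, -0.28 and -0.24, and the rises of Csnk1a1, Mdm2 and Ywhag larger, at 0.40, 0.45 and 0.52, all still called. Of the 20 tested genes in the insulin and PI3K-AKT arm, 9 were higher and 1 was lower, while DESeq2 called 6 and limma-voom 9 of the 20. Irs2, an insulin receptor substrate, rose from 6.42 ± 0.979 to 14.2 ± 2.66 CPM (log2 fold change 1.16, edgeR adjusted p = 2.9e-05). Irs1, its partner at the receptor, rose by 0.71, and Pdpk1, the kinase that activates AKT and SGK, by 0.46. Sgk1, a kinase that phosphorylates FOXO3, was the single gene lower, from 126 ± 0.799 to 90.8 ± 3.84 CPM (log2 fold change -0.47, edgeR adjusted p = 1.64e-06). The AKT kinase genes Akt1 and Akt2 were not called, with log2 fold changes of -0.14 and -0.03, values whose sign changed in some alternatives.

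Of the 9 brakes on that arm 2 were higher and 3 lower, 55.6% against 38.2% of all genes. Pik3ip1, a membrane inhibitor of PI3K, rose from 35.4 ± 3.39 to 52.4 ± 1.12 CPM (log2 fold change 0.57, edgeR adjusted p = 1.22e-05). Phlpp1, a phosphatase of AKT, fell by 0.39 on the log2 scale, and the PP2A subunits Ppp2r1a and Ppp2ca fell by 0.24 and 0.19. With library totals these were -0.20 (edgeR adjusted p = 0.0939), -0.05 (edgeR adjusted p = 0.523) and -0.00178 (edgeR adjusted p = 0.982).

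Among 11 kinases that promote FOXO activity, 4 were higher and 2 lower after ligation, 54.5% against 38.2% of all genes. Prkab2, a regulatory subunit of AMPK, rose from 26.6 ± 2.79 to 57.1 ± 2.80 CPM (log2 fold change 1.10, edgeR adjusted p = 1.88e-09). Prkag2, another AMPK subunit, rose by 0.58, while Prkag1, which takes the same place in the AMPK complex, fell by 0.59 on the log2 scale. Stk4, the kinase MST1, rose by 0.72, and Mapk14, the p38 stress kinase, fell by 0.35, or by 0.16 with library totals (edgeR adjusted p = 0.0691). Of 7 other kinases that restrain FOXO, 1 was called (14.3%), Csnk1a1, higher by 0.21.

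The shares called among genes that bind or modify FOXO lay on either side of the 38.2% of all genes. Of 9 genes for 14-3-3 proteins and nuclear export, 3 were higher and 1 lower (44.4%), with Ywhag at 0.33 and Ywhaq at -0.38 as the largest among those called. Sfn, at means of 2.91 and 1.46 CPM, was at -0.95 and was not called (edgeR adjusted p = 0.0563). Ywhaq was at -0.19 with library totals (edgeR adjusted p = 0.115). Of 12 acetylation and methylation genes, 2 were higher and 2 lower (33.3%). Setd7, a lysine methyltransferase that modifies FOXO3, rose from 53.4 ± 0.844 to 85.7 ± 3.94 CPM (log2 fold change 0.68, edgeR adjusted p = 5.14e-08). Kat2b, an acetyltransferase, rose by 0.50. Prmt1, an arginine methyltransferase that shields FOXO1 from AKT, fell by 0.33, and the deacetylase Hdac5 fell by 0.28. With library totals they were at -0.14 (edgeR adjusted p = 0.0744) and -0.09 (edgeR adjusted p = 0.246). The deacetylase Sirt1 was not called, at a log2 fold change of 0.09. Of 4 ubiquitin ligases and deubiquitinases, 1 was called (25%), Mdm2, higher by 0.26.

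Known FOXO targets were taken as a list of 27 genes, all tested, of which 3 also stand among the regulators. Ligation against sham called 18 of them, 66.7% against 38.2% of all genes, with 13 higher and 5 lower. Their median was 0.15 against 0.01. DESeq2 called 13 and limma-voom 18, and with 1 library left out edgeR called 13 to 18. Libraries summed by header stem gave 13 targets, where all genes called were 4571 in place of 5277. The list was chosen with earlier results of these data known. Fbxo32, the atrophy ubiquitin ligase atrogin-1, rose from 65.4 ± 5.45 to 142 ± 8.38 CPM (log2 fold change 1.12, edgeR adjusted p = 5.96e-11). Trim63, its companion ligase MuRF1, was not called, at 124 ± 8.17 and 135 ± 11.7 CPM (log2 fold change 0.12, edgeR adjusted p = 0.191), though with library totals it was (0.31, edgeR adjusted p = 0.000876). Sesn3, a sestrin that restrains mTOR, rose by 0.76, and Irs2 is in this list as well. The targets that fell included Pink1, the mitophagy kinase, from 652 ± 8.29 to 472 ± 14.9 CPM (log2 fold change -0.47, edgeR adjusted p = 2.21e-08). Eng, an endothelial TGF-beta co-receptor, fell by 0.43, and the 6 endothelial markers above were also lower in that comparison. From ligation to cells the mean of Eng went from 419 to 366 CPM, while the summed endothelial markers were higher with cells. Gadd45a, a growth arrest gene, fell by 0.59, a call that 7 of 21 alternatives did not hold.

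In cells against ligation, 6 of the 72 regulators were called, 8.33% against 9.87% of all genes. Irs2 rose further, to 22.4 ± 2.52 CPM (log2 fold change 0.63, edgeR adjusted p = 0.00671). Sgk1 rose from 90.8 ± 3.84 to 115 ± 3.04 CPM (log2 fold change 0.34, edgeR adjusted p = 0.000504), a call lost with cell replicate 1 as the lone cell library (edgeR adjusted p = 0.0721). Against sham, Sgk1 with cells differed by -0.14 (edgeR adjusted p = 0.0635), and 4 of 21 alternatives called it lower. Inpp5d, the phosphatase SHIP1 of blood cells, fell from 19.0 ± 2.42 to 10.5 ± 0.250 CPM, by 0.87 on the log2 scale (edgeR adjusted p = 0.000271). Pik3cd, the PI3K catalytic subunit typical of leukocytes, fell by 0.64, a call lost without ligation replicate 2 (edgeR adjusted p = 0.0654). Both fell in a comparison in which 6 of 6 macrophage markers were called lower. From sham to ligation the mean sum of those markers went from 548 to 999 CPM. Over the same groups Inpp5d went from 17.1 to 19.0 CPM and Pik3cd from 12.6 to 14.1 CPM. The part of macrophage content in the 2 genes was not tested. Pik3r1, a PI3K regulatory subunit, fell by 0.23, and Pik3ip1 by 0.28, calls that 6 and 8 of 21 alternatives did not hold. With cell replicate 1 as the lone cell library, 3 regulators were called.

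The targets changed in both directions between cells and ligation. Of 27 targets, 9 were called, 33.3% against 9.87% of all genes, with 4 higher and 5 lower and a median of -0.02. Klf2, a shear stress factor of endothelium, rose from 106 ± 5.22 to 186 ± 6.94 CPM (log2 fold change 0.82, edgeR adjusted p = 7.49e-09). In this comparison 2 of the 6 endothelial markers were called higher and 0 lower, and the part of endothelial content in Klf2 was not tested. Pdk4, which diverts fuel use from glucose to fatty acids, rose from 97.8 ± 7.04 to 167 ± 2.78 CPM (log2 fold change 0.78, edgeR adjusted p = 2.13e-08). Trim63 rose by 0.26 (edgeR adjusted p = 0.0167), a call lost without ligation replicate 3 (edgeR adjusted p = 0.124), without cells replicate 2 (edgeR adjusted p = 0.0780) or with cell replicate 1 as the lone cell library (edgeR adjusted p = 0.357), while Fbxo32 did not move detectably, at 135 ± 3.78 CPM with cells. Cited2, a transcriptional co-regulator, fell by 0.50 on the log2 scale, Bnip3, a mitophagy receptor, by 0.35 and Klf15, a metabolic transcription factor, by 0.30. The call of Klf15 was not held by 13 of 21 alternatives, and that of Bnip3 was lost without cells replicate 3 (edgeR adjusted p = 0.0588) or with cell replicate 1 as the lone cell library (edgeR adjusted p = 0.0526). Leaving out ligation replicate 3 or cells replicate 3, or keeping cell replicate 1 as the lone cell library, reduced the 9 called targets to 5.

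Cells against sham called 36 of 72 regulators, 50.0% against 40.9% of all genes, with 24 higher and 12 lower. With cell replicate 1 as the lone cell library the count was 20. Targets called were 19 of 27, 13 higher and 6 lower, with a median of 0.12 against -0.01. Fbxo32 was higher by 1.04, Irs2 by 1.79, Prkab2 by 1.26, Setd7 by 0.83 and Pdk4 by 0.84 on the log2 scale. Pink1 fell by 0.42, Eng by 0.63 and Sod2, the mitochondrial superoxide dismutase, by 0.31. With library totals these falls were smaller but still called, at -0.26 for Pink1, -0.47 for Eng and -0.15 for Sod2.

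**Figure D4:**
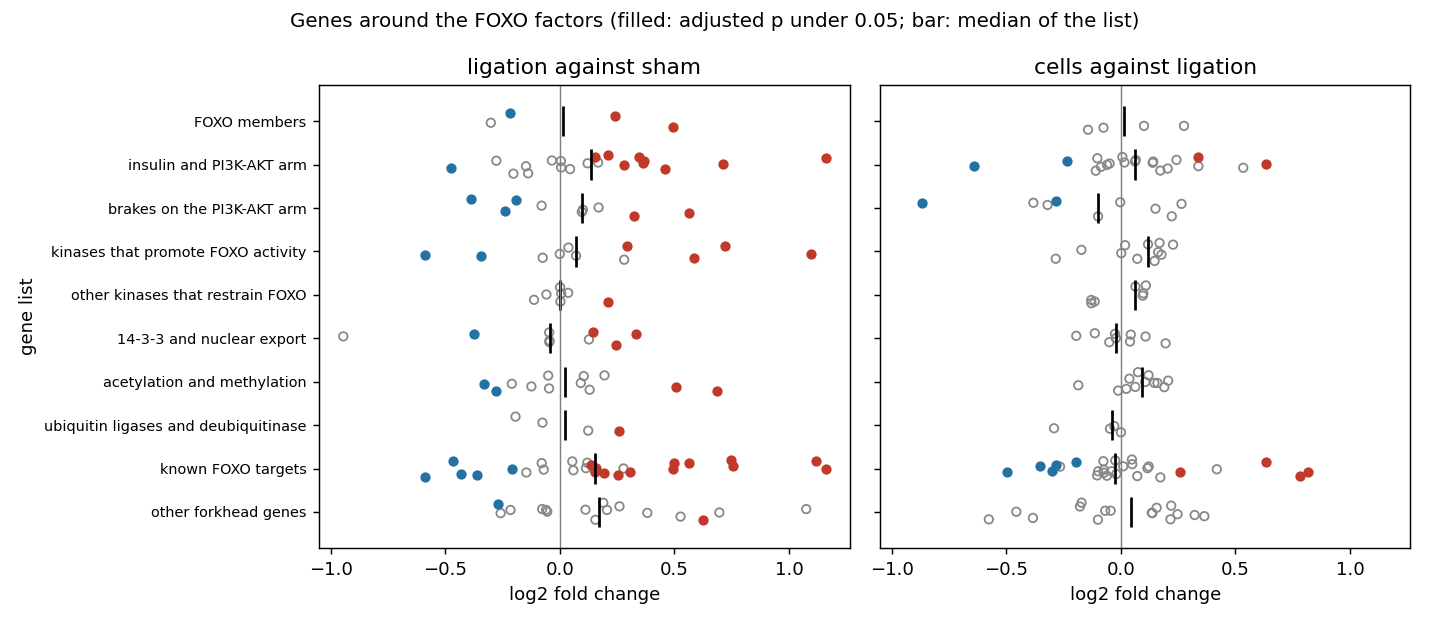
Log2 fold changes (x axis) of the FOXO genes and the genes of each list (y axis), 1 point per gene tested, in ligation against sham (left) and cells against ligation (right); filled points were called by edgeR, open points were not, and bars mark the list median. The targets have 13 genes called higher and 5 lower in ligation against sham, and 4 higher and 5 lower in cells against ligation.

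Other forkhead genes gave a view of the wider family. Of 41 listed, 40 were found and 16 were tested, the other 24 being too low for the filter. Ligation against sham called 2 of the 16, against 38.2% of all genes. Foxp4 rose from 14.5 to 22.2 CPM (log2 fold change 0.62, edgeR adjusted p = 0.000611), and Foxp1 fell by 0.27 (edgeR adjusted p = 0.0285), a call that 7 of 21 alternatives did not hold. DESeq2 called 1. Library totals without TMM factors called 6, and the count was 1 without sham replicate 1, sham replicate 2, ligation replicate 2 or ligation replicate 3. In cells against ligation edgeR, DESeq2 and limma-voom each called 0, against 9.87% of all genes by edgeR, with 2 at an unadjusted edgeR p under 0.05, and edgeR called 2 without ligation replicate 1. Cells against sham called 5 of the 16, 4 higher and 1 lower, 31.2% against 40.9% of all genes. Among them were Foxp4 at 0.52, Foxk2 at 0.36 (edgeR adjusted p = 0.0756 with cell replicate 1 as the lone cell library) and Foxp2 at 0.63, the last a call that 6 of 21 alternatives did not hold. Foxc1, a factor of mesenchyme and vessels, fell by 0.67 on the log2 scale (edgeR adjusted p = 0.00209). DESeq2 called 3 of the 16, and edgeR called 3 without sham replicate 1 or with cell replicate 1 as the lone cell library.

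The bases just upstream of the start of Foxo1 and Foxo3, the 2 of 4 members matched in the RefSeq promoter table, are shown to compare their composition. They are on GRCm38.p6, 5′ to 3′ on the strand of the gene, ending at the last base before the annotated gene. Capitals mark matches on either strand to a GC box (GGGCGG) or a CCAAT box (CCAAT).
Foxo1, chr3:52268087-52268335, plus strand: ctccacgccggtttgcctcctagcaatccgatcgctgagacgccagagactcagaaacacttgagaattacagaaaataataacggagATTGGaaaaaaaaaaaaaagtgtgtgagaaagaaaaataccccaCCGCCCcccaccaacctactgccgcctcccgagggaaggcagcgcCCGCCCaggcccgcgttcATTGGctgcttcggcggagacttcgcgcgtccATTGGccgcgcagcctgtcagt
Foxo3, chr10:42276756-42276945, minus strand: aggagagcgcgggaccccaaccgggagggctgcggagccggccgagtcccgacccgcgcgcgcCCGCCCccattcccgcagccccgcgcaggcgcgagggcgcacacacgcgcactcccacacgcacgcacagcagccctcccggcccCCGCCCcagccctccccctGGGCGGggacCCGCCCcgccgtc

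The 249 bases of Foxo1 were 55.8% G or C and held 2 GC boxes and 3 CCAAT boxes. The 190 bases of Foxo3 were 81.6% G or C and held 4 GC boxes and 0 CCAAT boxes. The core FOXO site GTAAACA was found 0 times in either window on either strand. Of 32851 mouse promoter windows, 32.7% held the GC box, 33.8% the CCAAT box and 3.17% the core FOXO site. Those windows were 250 bases long, somewhat longer than these, and their median G or C content was 52.4%. A match is a description of the letters, not a bound site.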

How the data were processed

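TRIzol was used for the RNA and the NEBNext Ultra RNA kit for the libraries, per the labels' protocols. The authors deposited 1 table of raw gene counts per library, without normalization. The submitters' processing notes name the mm10 build, while the counter and the strand setting are not given in the sources used here. Reads counted to no gene came to 4.14% to 4.91% of each library, and ambiguous reads to 8.09% to 8.72%; both were left out.

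Positions, lengths and symbols came from GENCODE M21. Counts were filtered with filterByExpr, scaled with TMM, and fitted with edgeR 4.0.16 in R 4.3.3 (glmQLFit, glmQLFTest) in 1 model of all 9 libraries with a mean per group. Tests are two-sided, and p-values were adjusted over 13825 genes by the Benjamini-Hochberg method, with calls at an adjusted p under 0.05. SEs were derived from the quasi-likelihood F statistic. The procedure was tested on simulated counts with known changes.

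The members and gene lists were chosen with earlier results of these data known. Named genes are the members, up to 3 called genes per list and direction by size of change (mean of at least 1 CPM), genes fixed by name (Akt1, Akt2, Sgk1, Sirt1, Fbxo32, Trim63, and 2 that are not reported here), and the 3 genes most like each member (mean of at least 10 CPM, log2 of CPM plus 0.5). The 21 alternatives comprised other scalings and filters, DESeq2 1.42.0, voom in limma 3.58.1, fits of the compared groups only, mitochondrially encoded genes left out, a replicate block, 1 library left out at a time, cell replicate 1 as the lone cell library and, chosen after seeing the data, libraries summed where their column headers share a stem. The 3 length alternatives were also chosen after seeing the data.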

Additional observations from a re-analysis of the deposited data

How the results depend on the processing

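Foxo4 and Foxo3 in ligation against sham, and Foxo4 in cells against sham, kept their direction and their call in all 21 alternatives. Foxo1 in ligation against sham lost its call with library totals alone (-0.0284), no filter on low counts (-0.21), a filter at a mean of 1 CPM (-0.22), DESeq2 (-0.23), limma-voom (-0.22), the compared groups only (-0.23), cell replicate 1 as the lone cell library (-0.23) and libraries summed by header stem (-0.24). It also lost its call when any of the 9 libraries was left out, with changes from -0.26 to -0.19. Deviations of same-numbered libraries from their group means correlated at -0.12 to 0.13. With 3 libraries per group and no comparison to differently numbered libraries, these values cannot settle whether replicate numbers pair the samples. With a replicate block Foxo1 was at -0.22 (edgeR adjusted p = 0.0587). The block changed no other call among the members.

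Library totals raised the median gene by 0.19 in ligation against sham and by 0.16 in cells against sham, and shifted it by -0.03 in cells against ligation. The share of calls that were higher became 78.7% in place of 52.7%, 73.1% in place of 51.2%, and 32.0% in place of 42.4% in the same order. In cells against sham, library totals turned Foxo1 to 0.0424 and Foxo6 to 0.13, and gave Foxo3 a call at 0.26. Foxo6 there was 0.0459 with cell replicate 1 as the lone cell library, and ran from -0.0963 to 0.0839 with 1 library left out.

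With cell replicate 1 as the lone cell library, whose spread is then assumed to be that of the other groups, regulators called were 3 and 20 against ligation and sham, in place of 6 and 36. Targets called against ligation were 5 in place of 9, other forkhead genes called against sham 3 in place of 5, and all genes called against ligation 485 in place of 1365. With 1 library left out, targets called in cells against ligation ran from 5 to 8. Other forkhead genes called then ran from 1 to 3 in ligation against sham, from 0 to 2 in cells against ligation and from 3 to 7 in cells against sham. In ligation against sham other forkhead genes called were 6 with library totals, 1 with DESeq2 and 1 with libraries summed by header stem, and in cells against sham 3 with DESeq2.

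Levels moved beyond the spread between libraries under other scalings. With library totals, mean CPM was 32.3, 31.6 and 33.3 for Foxo1 in sham, ligation and cells, 64.7 and 87.0 for Foxo3 in sham and ligation, and 80.8 and 75.0 for Foxo4 in ligation and cells. With mitochondrially encoded genes left out, mean CPM was 41.9, 35.6 and 38.2 for Foxo1, 83.8, 97.9 and 88.6 for Foxo3, 65.1, 90.9 and 86.1 for Foxo4, and 2.93, 2.33 and 2.84 for Foxo6.

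Among the other named genes, changes of sign were limited to small values. Library totals turned Akt1 to 0.0506 and Akt2 to 0.15 in ligation against sham, Akt2 to -0.0136 in cells against ligation, and Akt2 to 0.14 and Sgk1 to 0.0221 in cells against sham. With cell replicate 1 as the lone cell library, Akt1 was 0.11 in cells against ligation and Akt2 0.0141 in cells against sham. With 1 library left out, Akt1 ran from -0.146 to 0.0117 in cells against ligation. Akt2 ran from -0.0868 to 0.0264 in ligation against sham, from -0.0466 to 0.0688 in cells against ligation, and from -0.0535 to 0.0223 in cells against sham. Sirt1 ran from -0.0186 to 0.177 in ligation against sham. The cause of these shifts was not tested. Foxo6 had the fewest counts of the 4 members, at 9 to 19 per library.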

Other observations

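Foxo6os, a transcript annotated antisense beside Foxo6 on chromosome 4, was chosen after its values were seen and was too low for the filter on low counts. It had 15, 9 and 9 counts in the sham libraries, 0, 1 and 3 in the ligation libraries and 4, 4 and 4 in the cells libraries. In these counts sham was the highest group and the 3 groups did not overlap. The ligation counts were at or below the 3 counts taken as the limit of detection. Among the genes tested, ranges did not overlap for 47.6% in ligation against sham. The share was 27.2% in cells against ligation and 49.8% in cells against sham. Foxo6 itself had 14, 16 and 14 counts in sham, 9, 12 and 18 in ligation and 18, 19 and 14 in cells, which overlap. No test was run on Foxo6os, and without a stated strand setting its reads cannot be placed on a strand.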
